A study of Homo sapiens with 56 samples.

Results

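The genes described here are 36 members of the cellular chaperone network, taken by name from a list and looked up in both deposited count tables. The list was chosen with earlier results of these data known. All 36 were found among 59409 gene symbols in the Mv4;11 table and 59081 in the KG-1 table, and all 36 passed the filter on low counts in both lines. By role, 2 members encode the stress-inducible HSP70 proteins (HSPA1A, HSPA1B), 5 other cytosolic HSP70-family proteins (HSPA8, HSPH1, HSPA4, HSPA4L, HSPA14), and 6 J-domain proteins or the nucleotide exchange factor BAG3. A further 1 encodes a small heat shock protein (HSPB1), 2 encode cytosolic HSP90 (HSP90AA1, HSP90AB1), 6 encode HSP90 cochaperones (STIP1, CHORDC1, AHSA1, FKBP4, PTGES3, CDC37), and 8 encode the subunits of the CCT ring (TCP1, CCT2, CCT3, CCT4, CCT5, CCT6A, CCT7, CCT8). The list is not wholly cytosolic, since 4 members encode chaperones that work in mitochondria (HSPA9, HSPD1, HSPE1, DNAJA3) and 2 encode heat shock transcription factors (HSF1, HSF2).

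Messenger RNA was sequenced in bulk in 56 libraries, which fall into 16 groups, from Mv4;11 and KG-1. Both are long-established lines grown from human acute myeloid leukaemias. Each line was given PMR-116 or CX-5461, both at 1 µM, or a vehicle made of citric acid and NaH2PO4, for 3 h or 12 h. Each compound had vehicle libraries of its own at each time, so no vehicle library serves both compounds. There were 3 libraries in each of the 8 Mv4;11 groups and 4 in each of the 8 KG-1 groups. The groups, in each line and at each time, were therefore PMR-116, CX-5461, the vehicle of PMR-116 and the vehicle of CX-5461. Both compounds are known as inhibitors of RNA polymerase I, which transcribes the large ribosomal RNA precursor. The library names of KG-1 carry a batch tag and those of Mv4;11 carry none, and the files give each line a table of its own. Line, table and any batch therefore cannot be told apart. The labels do not say whether the replicates came from separate cultures, so the p-values measure the spread between these libraries, which may be technical.

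Molecular chaperones bind unfolded or partly folded proteins and, with the energy of ATP, help them reach their native state. HSP70 binds short exposed stretches of a client under the control of J-domain proteins and nucleotide exchange factors, HSP90 completes the folding of kinases, steroid receptors and other signalling proteins with the help of cochaperones, and the CCT ring folds actin, tubulin and other cytosolic proteins inside its cavity. HSF1 and HSF2 bind heat shock elements, which are inverted repeats of the unit NGAAN, and HSF1 drives many of these genes when unfolded proteins accumulate, but also, in cancer cells, without heat.

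The stretch just before the start of 4 members is shown because these genes are described in detail further on and hold the letters of the element to which heat shock factors bind. The sequences are from RefSeq, build GRCh38.p14, which is not the patch named in the submitters' processing notes (GRCh38.p13). Each covers the 250 bases before the annotated start on the gene's own strand, 5′ to 3′. Capitals in HSPA8 and CHORDC1 mark a three-unit heat shock element (GAANNTTCNNGAA or TTCNNGAANNTTC), and capitals in HSPA1A and HSPA1B mark a two-unit element (GAANNTTC, the same on both strands).
HSPA8, chr11:123062137-123062386, minus strand: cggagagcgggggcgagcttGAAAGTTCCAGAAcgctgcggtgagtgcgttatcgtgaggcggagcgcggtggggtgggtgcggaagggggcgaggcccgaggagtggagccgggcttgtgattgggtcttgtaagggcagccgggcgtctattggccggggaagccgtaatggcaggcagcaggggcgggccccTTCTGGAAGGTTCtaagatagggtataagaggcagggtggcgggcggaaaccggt
CHORDC1, chr11:90223050-90223299, minus strand: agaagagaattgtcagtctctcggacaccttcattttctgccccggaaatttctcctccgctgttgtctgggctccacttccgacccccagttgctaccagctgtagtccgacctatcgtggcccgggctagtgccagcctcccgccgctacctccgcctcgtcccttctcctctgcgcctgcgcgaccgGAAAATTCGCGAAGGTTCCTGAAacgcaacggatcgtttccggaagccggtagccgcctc
HSPA1A, chr6:31815293-31815542, plus strand: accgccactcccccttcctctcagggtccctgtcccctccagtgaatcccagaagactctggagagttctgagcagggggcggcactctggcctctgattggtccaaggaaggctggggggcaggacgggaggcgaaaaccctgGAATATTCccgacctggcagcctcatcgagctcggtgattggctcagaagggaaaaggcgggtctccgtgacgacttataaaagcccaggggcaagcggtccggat
HSPA1B, chr6:31827488-31827737, plus strand: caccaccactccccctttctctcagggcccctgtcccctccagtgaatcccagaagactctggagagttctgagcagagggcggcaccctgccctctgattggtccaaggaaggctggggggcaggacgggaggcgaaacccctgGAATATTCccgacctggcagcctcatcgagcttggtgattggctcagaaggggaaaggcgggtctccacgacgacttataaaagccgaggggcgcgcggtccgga
HSPA8 holds 2 three-unit elements, the first spanning 230 to 218 bases before the start and the second 55 to 43 bases before it. CHORDC1 holds 3 such elements that overlap one another, which lie between 60 and 38 bases before the start. In HSPA1A the two-unit element lies 106 to 99 bases before the start, and in HSPA1B 105 to 98 bases before it. The HSPA1A and HSPA1B windows aligned with 93.6% identity, and the coding sequences of both genes, 1926 bases each, differed at 4 bases (99.8% identity). Counts cannot divide such copies reliably, so each gene is uncertain alone, and the sum of both is also given.

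Of the 36 members, 32 had a promoter entry in RefSeq (CCT6A, HSPA14, FKBP4 and HSF1 did not). Some genes have more than 1 annotated start, and a gene was counted when the window of any start held the element. A three-unit element stood in the 250 bases before a start of 6 of these 32 (18.8%), against 0.557% of 27305 genes with a window of the same length. The 6 were HSPA8, HSP90AA1, HSP90AB1, CHORDC1, DNAJB6 and HSPD1. By window the share was 13% of the members' 46 windows, against 0.441% of 35116 windows of all genes. A two-unit element stood in 13 of 32 (40.6%), against 7.05% of all genes, counting every three-unit element as well, since each contains it. An E-box (CACGTG, the same on both strands) stood in 4 of 32 (12.5%), against 7.73% of all genes. These are matches of letters on both strands, not sites shown to be bound.

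Library totals ran from 28751758 to 41542156 counts in Mv4;11 and from 31010072 to 72707757 in KG-1. Levels are given as CPM, the counts scaled to a common library size, with library sizes adjusted by the trimmed mean of M-values (TMM). A log2 fold change (log2FC) is treated over vehicle, so a negative one means lower with the compound, and its error is a standard error. A gene was called when its p from edgeR's quasi-likelihood test, adjusted over all 20495 genes tested in Mv4;11 or all 18618 in KG-1, was under 0.05. In bulk RNA, fewer cells with a transcript and less of it per cell cannot be told apart. Markers of myeloid leukaemia cells summed to between 1931 and 2740 CPM in Mv4;11 and between 2497 and 3239 CPM in KG-1. Most of the KG-1 sum was CD34 (1795 to 2487 CPM), while LYZ, MPO, FLT3 and CSF1R were each at most 13.4 CPM there. In Mv4;11 the highest was LYZ (667 to 1484 CPM), while CD34 was at most 1.19 CPM and MPO at most 15.7 CPM. Haemoglobin HBB was at 0 in both lines and erythroid markers summed to at most 0.529 CPM. The 5 lymphocyte markers summed to 17.6 to 25.5 CPM in Mv4;11 and to 212 to 254 CPM in KG-1, where NKG7 (143.5 to 182.5 CPM) and CD3D (58.5 to 74.8 CPM) made up most of the sum while the B cell marker MS4A1 was at most 0.0457 CPM. The 10 markers of fibroblasts, endothelium and epithelium summed to 59.6 to 127 CPM in Mv4;11 and to 150.2 to 194 CPM in KG-1, most of it PECAM1, with EPCAM, COL1A2 and CDH5 at most 0.165 CPM in either line. KRT8 was at 2.01 to 5.51 CPM and KRT18 at 2.76 to 5.55 CPM in Mv4;11. In KG-1, KRT8 was at 1.22 to 2.63 CPM and VWF at 1.05 to 2.56 CPM. The part of these markers in the results was not tested. The Mv4;11 library of the PMR-116 vehicle at 12 h, replicate 3, stood apart, with 1126 CPM of the nuclear RNA MALAT1, where the 5 remaining Mv4;11 vehicle libraries taken at 12 h had 59.4 to 73.6 CPM. The 12 h counts that use this library are also given without it.

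In Mv4;11 at 12 h, PMR-116 lowered most of the chaperone network. Of the 36 members, 32 were called lower and none higher, where 43.2% of all genes tested were called, 22.5% lower and 20.7% higher. The median log2FC of the members was -0.80, against 0.01 over all genes tested, and in 31 of the 36 every PMR-116 library lay below every vehicle library, as it did for 25% of all genes. CX-5461 lowered 30 of the 36 at 12 h and raised none, where 31.4% of all genes were called, 16.5% lower and 14.8% higher. With CX-5461 the members' median was -0.56, against 0.04 over all genes, and 32 of the 36 had no overlap between groups in this direction, against 22.6% of all genes. In all, 29 members were lower with both compounds. CDC37, DNAJA2 and HSF2 were called with PMR-116 alone and CCT8 with CX-5461 alone. For none of these genes was the difference between the compounds itself called. With the library that stood apart left out, 33 members were called lower with PMR-116. The smallest falls depended on the processing. With plain library totals CDC37 was at -0.04 and DNAJB6 at -0.19 with PMR-116 and CCT8 at -0.08 with CX-5461, none of them called. With CX-5461, HSPA1A was not called without vehicle replicate 2 or CX-5461 replicate 3, nor CCT8 without vehicle replicate 1 or CX-5461 replicate 2 or 3.

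**Figure D1:**
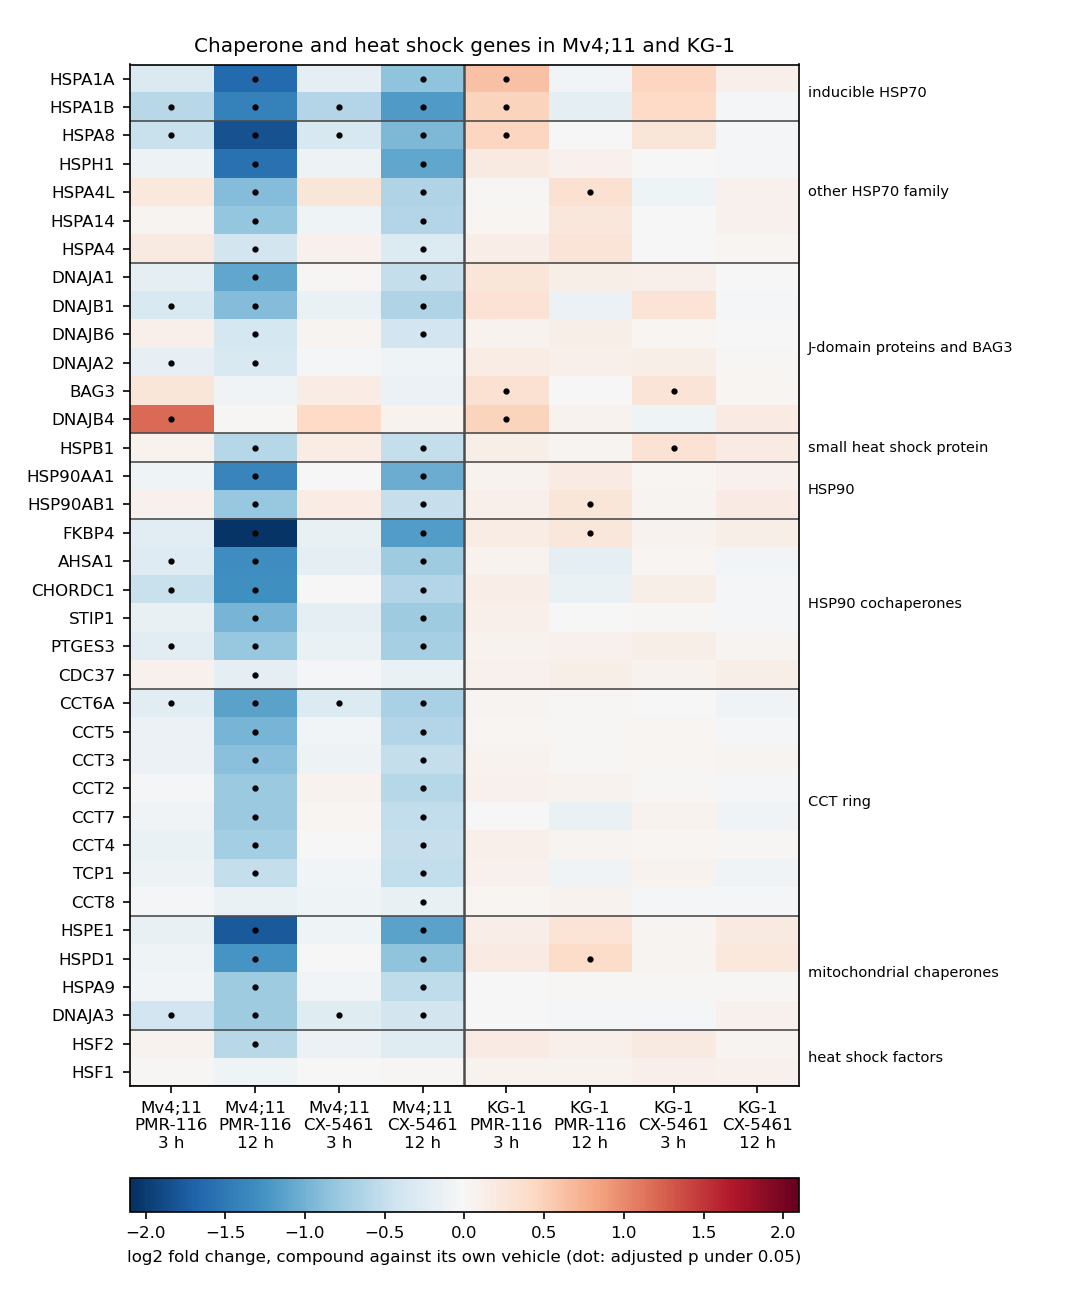
Log2 fold change of each of the 36 members (down the page, by role) against the compound's own vehicle in the 8 comparisons of line, time and compound (across); the colour scale gives the log2 fold change and a dot marks an adjusted p under 0.05. The Mv4;11 columns at 12 h are dark with lower values in 32 and 30 members, while the KG-1 columns are pale, with at most 5 called.

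The inducible HSP70 genes, whose transcripts are kept low in unstressed cells and rise steeply on heat shock, were among the members that fell most. HSPA1A stood at 27.3, 26.97 and 26.8 CPM in the PMR-116 libraries at 12 h, against 95.4, 91.5 and 64.4 CPM in the vehicle libraries. The treated libraries lay close together and far below the lowest vehicle library, and the log2FC was -1.63 ± 0.26 (edgeR adjusted p = 1.6e-05). HSPA1B stood at 36.8, 31.6 and 29.6 CPM in the CX-5461 libraries, against 75.97, 84.3 and 64.4 CPM in its vehicle libraries. These groups did not overlap either, with a log2FC of -1.19 ± 0.19 (adjusted p = 2.4e-05). Taken as 1 feature, HSPA1A and HSPA1B together stood at 55.6, 53.1 and 53.3 CPM with PMR-116, against 178, 158 and 133 CPM with vehicle, and at 83.6, 77.4 and 68.8 CPM with CX-5461, against 149.9, 185 and 128 CPM with vehicle. The sum was thus lower in every treated library, by -1.53 ± 0.21 on the log2 scale with PMR-116 (adjusted p = 2.5e-06) and -1.01 ± 0.21 with CX-5461 (adjusted p = 0.00062).

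All 5 of the other cytosolic HSP70-family members fell with both compounds. HSPA8, the constitutive HSP70 of the cytosol, stood at 590.3, 513 and 524 CPM with PMR-116, against 2176, 1962 and 1658 CPM with vehicle. It stood at 1127, 909 and 999.5 CPM with CX-5461, against 1916, 2146 and 1764 CPM with vehicle. Neither pair of groups overlapped, and PMR-116 left HSPA8 at 0.281 of the vehicle level (log2FC -1.83 ± 0.10, adjusted p = 7.8e-13) where CX-5461 left it at 0.521 (log2FC -0.94 ± 0.10, adjusted p = 1e-07). HSPH1, an HSP110 protein that acts as nucleotide exchange factor for HSP70, stood at 177, 147 and 147 CPM with CX-5461, against 345, 373 and 284 CPM with vehicle. Its groups were clearly apart, at a log2FC of -1.09 ± 0.11 with CX-5461 and -1.57 ± 0.11 with PMR-116. The other HSP110 genes, HSPA4L and HSPA4, had log2FC values of -0.92 and -0.38 with PMR-116, and -0.63 and -0.29 with CX-5461. HSPA14, a ribosome-associated HSP70, was at -0.81 with PMR-116 and -0.61 with CX-5461.

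The J-domain proteins, which hand clients to HSP70 and stimulate its ATPase, were less even. DNAJA1 had the largest fall among them with PMR-116, at 162, 142 and 145 CPM, against 355, 323 and 275 CPM with vehicle. DNAJB1 (HSP40), a well-known HSF1 target, stood at 115, 105 and 102 CPM with CX-5461, against 162, 177 and 159 CPM with vehicle. In both genes the groups did not overlap, at log2FC values of -1.08 ± 0.09 for DNAJA1 with PMR-116 and -0.63 ± 0.09 for DNAJB1 with CX-5461. DNAJB1 was at -0.91 ± 0.09 with PMR-116 and DNAJA1 at -0.50 ± 0.09 with CX-5461. DNAJB6, which suppresses aggregation, was called with PMR-116 (-0.37 ± 0.09) although 1 or more libraries of its groups overlapped, and with CX-5461 (-0.41 ± 0.09). DNAJA2 was called with PMR-116 (-0.32 ± 0.06) and not with CX-5461 (-0.09 ± 0.06, adjusted p = 0.3). DNAJB4 passed the test with neither compound, and nor did BAG3, a nucleotide exchange factor that links HSP70 to autophagy and is a classical HSF1 target. BAG3 stood at 26.5, 24.3 and 25.3 CPM with PMR-116, against 28.8, 28.2 and 23.1 CPM with vehicle, at a log2FC of -0.07 with a 95% interval of -0.28 to 0.13. The interval of DNAJB4 with PMR-116 was -0.28 to 0.33.

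HSPB1 (HSP27), the small heat shock protein that holds unfolded clients in solution, stood at 71.5, 59.8 and 81.6 CPM with PMR-116, against 111, 106 and 106 CPM with vehicle. It stood at 78.7, 70.9 and 74.6 CPM with CX-5461, against 107, 105 and 104 CPM with vehicle. Every treated library was below every vehicle library, with log2FC values of -0.60 ± 0.09 for PMR-116 and -0.50 ± 0.09 for CX-5461.

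Both cytosolic HSP90 genes fell with both compounds. HSP90AA1, the isoform that heat induces, stood at 1133, 978 and 987 CPM with PMR-116, against 2959, 2728 and 2374 CPM with vehicle. It stood at 1489, 1207 and 1309 CPM with CX-5461, against 2805, 2911 and 2527 CPM with vehicle. The separation was wide in both cases, at -1.38 ± 0.09 for PMR-116 (adjusted p = 1.4e-11) and -1.04 ± 0.09 for CX-5461 (adjusted p = 4.9e-09). The constitutive isoform HSP90AB1 was at -0.80 ± 0.06 with PMR-116 and -0.48 ± 0.06 with CX-5461.

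Of the 6 HSP90 cochaperones, 6 fell with PMR-116 and 5 with CX-5461, with medians of -1.13 and -0.72. FKBP4 (FKBP52), the immunophilin that joins HSP90 to steroid receptors, had the largest fall of all 36 members with PMR-116. It stood at 63.7, 45.7 and 53.7 CPM with PMR-116, against 239, 228 and 214 CPM with vehicle, and so at 0.24 of the vehicle level (log2FC -2.06 ± 0.10, adjusted p = 1.5e-13). With CX-5461 it stood at 104, 84.2 and 98.4 CPM, against 224, 221 and 206 CPM with vehicle (log2FC -1.18 ± 0.10, adjusted p = 3.4e-09). The libraries of PMR-116, of CX-5461 and of vehicle formed 3 levels without overlap. AHSA1, which stimulates the HSP90 ATPase, was at -1.31 ± 0.09 with PMR-116 and -0.75 ± 0.09 with CX-5461, and CHORDC1, a zinc-binding HSP90 partner, at -1.29 ± 0.12 and -0.62 ± 0.12. STIP1 (HOP), which bridges HSP70 and HSP90, was at -0.98 ± 0.07 with PMR-116 and -0.74 ± 0.06 with CX-5461, and PTGES3 (p23), which stabilises the closed HSP90 dimer, at -0.79 ± 0.07 and -0.69 ± 0.07. CDC37, which brings kinases to HSP90, had the smallest values, -0.21 ± 0.06 with PMR-116 (adjusted p = 0.0039) and -0.14 ± 0.06 with CX-5461 (adjusted p = 0.059, not called).

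Of the 8 CCT ring genes, 7 fell with PMR-116 and 8 with CX-5461, with medians of -0.78 and -0.51. CCT6A, the member of the ring that fell most with each compound, stood at 216, 179 and 198 CPM with PMR-116, against 478, 431 and 391 CPM with vehicle. It stood at 296, 257 and 268 CPM with CX-5461, against 456, 458 and 408 CPM with vehicle. Both treated groups were below all their vehicle libraries, at -1.13 ± 0.09 with PMR-116 and -0.69 ± 0.09 with CX-5461. The subunits of this ring occur once per ring in the assembled complex, yet their transcripts moved by different amounts. With PMR-116 the log2FC values ran through -0.98 for CCT5, -0.88 for CCT3, -0.78 for CCT2, -0.78 for CCT7, -0.72 for CCT4 and -0.49 for TCP1 to -0.14 for CCT8. CCT8 stood at 586, 517 and 566 CPM with PMR-116, against 671, 612 and 560.1 CPM with vehicle, and its groups overlapped (adjusted p = 0.067). With CX-5461 CCT8 was called by a narrow margin at -0.16 ± 0.06 (adjusted p = 0.049), while the other 7 lay between -0.69 and -0.48.

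The 4 mitochondrial chaperones fell with both compounds. HSPE1 (HSP10), the lid of the mitochondrial HSP60 chamber, stood at 55.1, 47.1 and 49.4 CPM with PMR-116, against 190.2, 174 and 153 CPM with vehicle, and at 93.8, 75.8 and 77.3 CPM with CX-5461, against 179.7, 183 and 177 CPM with vehicle. No groups overlapped, at -1.77 ± 0.09 with PMR-116 (adjusted p = 1.3e-13) and -1.13 ± 0.09 with CX-5461 (adjusted p = 6.4e-10). HSPE1 shares sequence with a readthrough gene and pseudogenes, which held 5.61% of their joint counts in Mv4;11. HSPD1 (HSP60), which lies head to head with HSPE1 in the genome, was at -1.24 ± 0.07 with PMR-116 and -0.85 ± 0.07 with CX-5461. HSPA9 (mortalin), the HSP70 of the matrix, was at -0.75 ± 0.06 with PMR-116 and -0.53 ± 0.06 with CX-5461. Its J-domain partner DNAJA3 was at -0.75 ± 0.06 with PMR-116 and -0.39 ± 0.06 with CX-5461.

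The HSF1 protein is regulated mainly after translation, which transcript levels do not show. The transcript of HSF1 differed little, at -0.09 with PMR-116 (95% interval -0.21 to 0.02) and 0.02 with CX-5461 (95% interval -0.09 to 0.13). HSF2 stood at 11.9, 12.3 and 9.24 CPM with PMR-116, against 20.2, 16.5 and 13.4 CPM with vehicle. Its groups were close but did not overlap, at -0.58 ± 0.15 (adjusted p = 0.0031), and with CX-5461 it was at -0.26 ± 0.15 (adjusted p = 0.22).

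**Figure D2:**
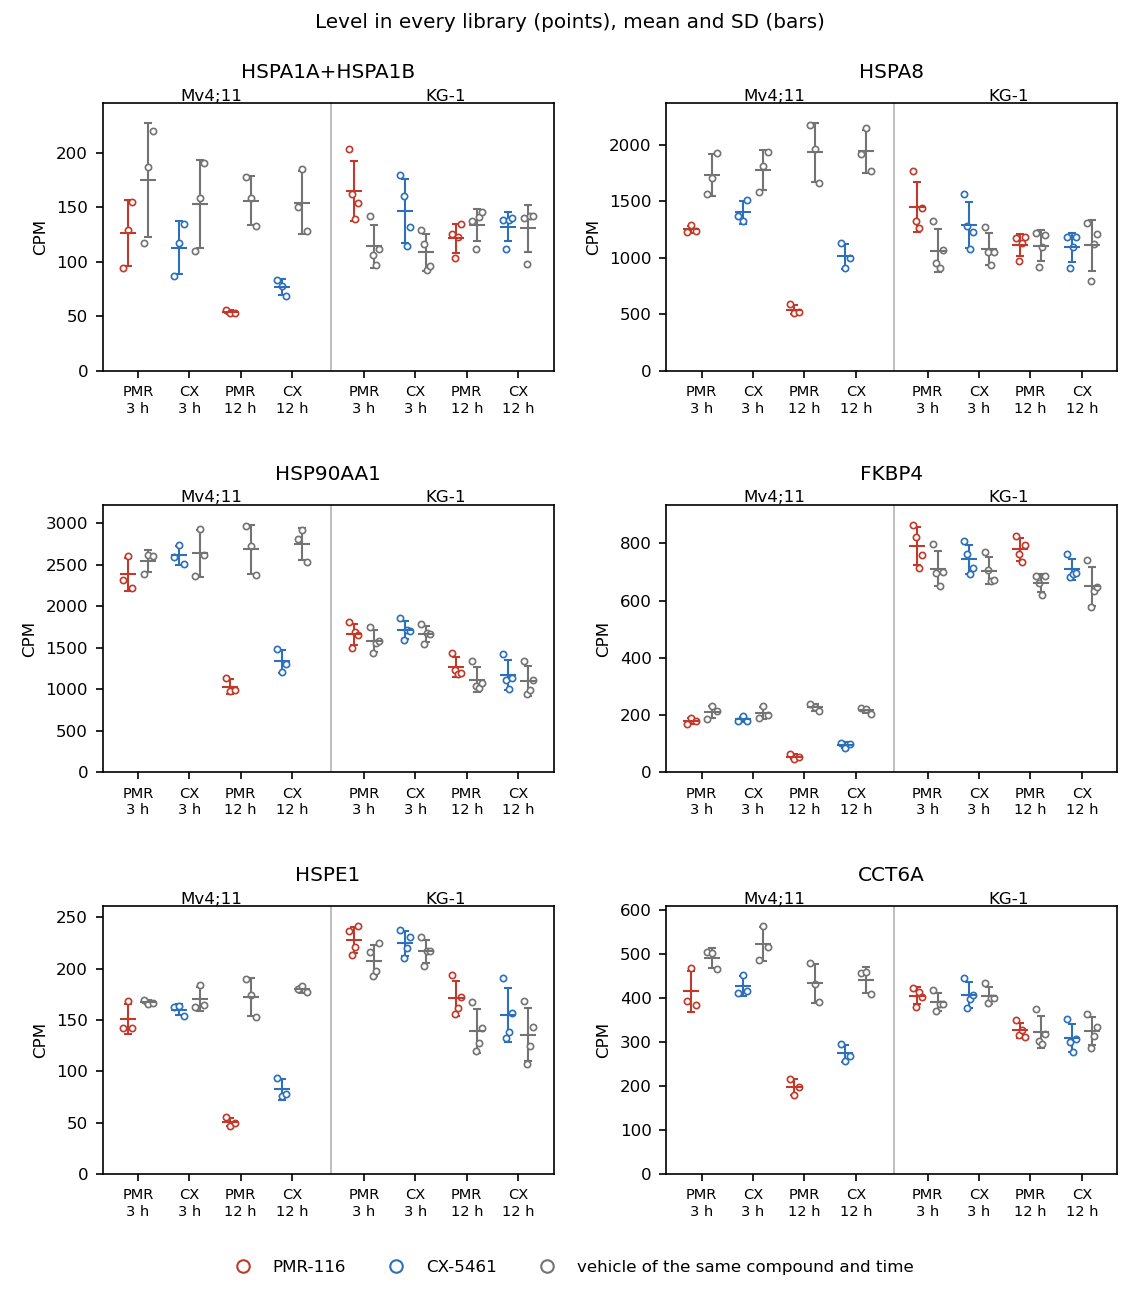
CPM of each library for HSPA1A and HSPA1B together, HSPA8, HSP90AA1, FKBP4, HSPE1 and CCT6A, by line, time and compound, with the treated group left of its vehicle; points are libraries, and bars are the mean and SD (n = 3 in Mv4;11 and n = 4 in KG-1). In Mv4;11 at 12 h every treated library of these genes lies below every vehicle library. In KG-1 the differences are smaller, with called rises with PMR-116 in the HSPA1A and HSPA1B sum and HSPA8 at 3 h and in FKBP4 at 12 h.

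By promoter letters, the 6 members with a three-unit element had a median log2FC of -1.26 with PMR-116 at 12 h in Mv4;11, and 6 of the 6 were lower. The 7 members with a two-unit element alone had a median of -0.91, with 7 of 7 lower, and the 19 with neither had a median of -0.75, with 16 of 19 lower. With CX-5461 the medians of these sets were -0.73, -0.59 and -0.51, in the same order. At 3 h the order was not kept, with medians of -0.095, -0.19 and -0.11 with PMR-116 and -0.004, -0.05 and -0.07 with CX-5461. At 12 h the 4 members with an E-box had medians of -0.995 with PMR-116 and -0.69 with CX-5461. The 28 without an E-box had medians of -0.79 and -0.51. The ranges of the sets split by heat shock element overlapped widely with PMR-116 at 12 h. HSPE1, with neither element in its window, was at -1.77, and DNAJB6, with a three-unit element, at -0.37. The 2 three-unit elements of HSPD1 start 245 and 240 bases before 1 of its annotated starts. They lie between that start and the start of HSPE1, outside the HSPE1 window. These medians and ranges describe the members and were not tested.

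At 3 h in Mv4;11 the changes were fewer and smaller. With PMR-116, 9 of the 36 members were lower and 1 higher, where 24.1% of all genes were called, 13.1% lower and 11% higher. With CX-5461, 4 of the 36 were lower and none higher, where 11.7% of all genes were called, 6.61% lower and 5.05% higher. The share of members called in either direction was close to that of all genes with each compound. The members' median log2FC was -0.11 with PMR-116 and -0.06 with CX-5461. All 4 members called with CX-5461 (HSPA1B, HSPA8, CCT6A and DNAJA3) were also called lower with PMR-116. CHORDC1, DNAJB1, AHSA1, PTGES3 and DNAJA2 were called lower with PMR-116 alone, but for none of them did edgeR call the difference between the compounds. Most of the 3 h calls rested on single libraries, and leaving out 1 at a time gave 5 to 10 members for PMR-116 and 1 to 5 for CX-5461. With CX-5461, HSPA1B and HSPA8 were not called without CX-5461 replicate 1 or 2 or vehicle replicate 2 or 3, nor CCT6A without CX-5461 replicate 1 or 3 or vehicle replicate 2 or 3. With PMR-116, HSPA1B lost its call without PMR-116 replicate 1 or vehicle replicate 2 or 3, CCT6A without PMR-116 replicate 1 or 3 or vehicle replicate 1 or 2, and DNAJB1 without vehicle replicate 3. AHSA1, PTGES3 and DNAJA2 each lost it in 4 of these fits. The calls of DNAJA3 with both compounds, and of HSPA8, CHORDC1 and DNAJB4 with PMR-116, held whichever library of their groups was left out. Library size scaling mattered here, since with plain library totals PMR-116 gave 7 lower and 5 higher members.

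HSPA8 was already down at 3 h, at 1230.5, 1289 and 1239 CPM with PMR-116, against 1565, 1708 and 1929 CPM with vehicle, and at 1367, 1324 and 1512 CPM with CX-5461, against 1580.2, 1816 and 1935 CPM with vehicle. Every treated library was below every vehicle library, at -0.47 ± 0.10 for PMR-116 (adjusted p = 0.0011) and -0.34 ± 0.10 for CX-5461 (adjusted p = 0.025). HSPA1B stood at 55.3, 72.96 and 80.98 CPM with PMR-116, against 73.7, 118 and 122 CPM with vehicle, and at 49.7, 64.2 and 68.7 CPM with CX-5461, against 67.5, 94.9 and 118 CPM with vehicle. The lowest vehicle library of HSPA1B overlapped the treated libraries in both, although the gene was called at -0.59 ± 0.18 with PMR-116 (adjusted p = 0.021) and -0.62 ± 0.18 with CX-5461 (adjusted p = 0.028). For HSPA1A and HSPA1B together the test was not passed at 3 h, at -0.47 ± 0.21 with PMR-116 (adjusted p = 0.11) and -0.44 ± 0.21 with CX-5461 (adjusted p = 0.2).

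DNAJA3, the mitochondrial J-domain protein, stood at 107, 97.3 and 101 CPM with PMR-116, against 133, 131 and 139 CPM with vehicle, and at 107, 109 and 112 CPM with CX-5461, against 128, 135 and 127 CPM with vehicle. Both pairs of groups were apart, at -0.40 ± 0.06 for PMR-116 and -0.25 ± 0.06 for CX-5461. CHORDC1 stood at 43.3, 43.3 and 34.6 CPM with PMR-116, against 55.7, 55.01 and 57.4 CPM with vehicle. Its groups did not overlap (log2FC -0.47 ± 0.12, adjusted p = 0.0037), whereas with CX-5461 its estimate was near 0, with a 95% interval of -0.23 to 0.22. CCT6A stood at 392.2, 468 and 385 CPM with PMR-116, against 504, 502 and 466 CPM with vehicle, and at 411, 453 and 416 CPM with CX-5461, against 487, 563 and 515 CPM with vehicle. With PMR-116 the groups of CCT6A overlapped by 1 library, and with CX-5461 they did not. It was the 1 CCT gene called at 3 h, at -0.24 ± 0.09 with PMR-116 and -0.29 ± 0.09 with CX-5461.

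DNAJB4 (HLJ1), a further cytosolic partner of HSP70, was the 1 member that rose in Mv4;11. It stood at 9.66, 12.98 and 14.6 CPM with PMR-116 at 3 h, against 6.39, 4.03 and 5.95 CPM with vehicle. The treated libraries were all higher, at a log2FC of 1.18 ± 0.16 (adjusted p = 5.5e-06), and by 12 h the estimate was 0.03. With CX-5461 at 3 h it stood at 8.02, 7.57 and 8.04 CPM, against 5.73, 5.602 and 6.42 CPM with vehicle. Those groups did not overlap either, but the test was not passed (0.41 ± 0.16, adjusted p = 0.095).

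The difference between times was itself tested in Mv4;11. The effect of PMR-116 was lower at 12 h than at 3 h in 32 of the 36 members, where 27.6% of all genes were called, 15.4% lower and 12.2% higher. That of CX-5461 was lower at 12 h in 26 of the 36, where 16.7% of all genes were called, 9.15% lower and 7.59% higher. No member was called in the other direction. The largest differences with PMR-116 were in FKBP4 (-1.82 ± 0.14), HSPE1 (-1.62 ± 0.12) and HSPH1 (-1.46 ± 0.15), and with CX-5461 in HSPE1 (-1.04 ± 0.12), HSP90AA1 (-1.03 ± 0.13) and FKBP4 (-1.02 ± 0.14). HSPA1A and HSPA1B together differed by -1.06 ± 0.30 with PMR-116 (adjusted p = 0.0088) and by -0.57 ± 0.30 with CX-5461 (adjusted p = 0.21, not called). Without the library that stood apart, 34 members were lower at 12 h with PMR-116.

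**Figure D3:**
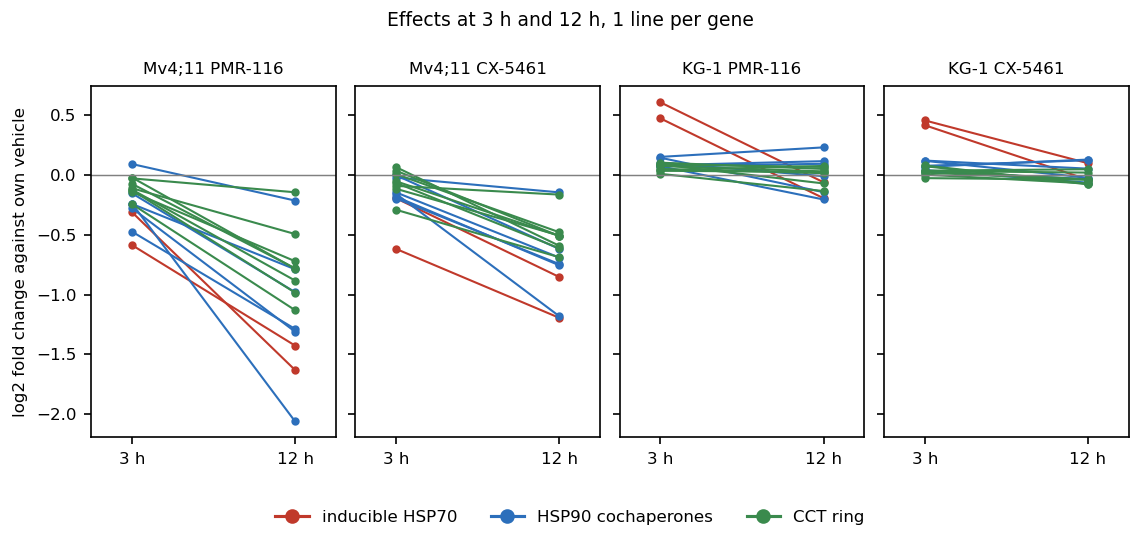
Log2 fold change against the compound's own vehicle at 3 h and 12 h for the inducible HSP70 genes, the HSP90 cochaperones and the CCT ring, with 1 line per gene and 1 panel per cell line and compound. In Mv4;11 the lines slope down between the times, to -2.06 for FKBP4 with PMR-116, and in KG-1 they stay near 0 apart from the inducible HSP70 genes at 3 h.

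In KG-1 no member was called lower with either compound at either time. At 3 h, PMR-116 raised 5 of the 36 members, where 7.33% of all genes were called, 3.61% higher and 3.71% lower. These were HSPA1A, HSPA1B, HSPA8, BAG3 and DNAJB4, and the estimates of all 36 lay above 0, with a median of 0.10, against 0.00 over all genes. In 4 of the 36 every PMR-116 library lay above every vehicle library, against 7.07% of all genes. CX-5461 at 3 h raised BAG3 and HSPB1, where 3.44% of all genes were called, 1.85% higher and 1.58% lower. At 12 h, PMR-116 raised HSPD1, HSPA4L, HSP90AB1 and FKBP4, where 9.46% of all genes were called, 4.73% higher and 4.74% lower. At an unadjusted p under 0.05, 9 members were higher and 1 lower in this comparison. CX-5461 at 12 h gave 0 calls by edgeR and 0 by DESeq2, with 3 members (HSPD1, HSP90AB1 and CDC37) above 0 at an unadjusted p under 0.05, and 2.54% of all genes called, 1.36% higher and 1.18% lower. Which members were called depended on single libraries. Leaving out 1 library at a time gave 2 to 5 calls for PMR-116 at 3 h, 0 to 3 for CX-5461 at 3 h and 1 to 6 for PMR-116 at 12 h. HSPA1A and BAG3 with PMR-116 at 3 h and HSP90AB1 at 12 h kept their calls in all of these fits. The call was lost in 6 of them by HSPA1B, HSPA8 and DNAJB4 with PMR-116 at 3 h, HSPB1 with CX-5461 at 3 h and FKBP4 with PMR-116 at 12 h, in 5 by BAG3 with CX-5461 and HSPA4L, and by HSPD1 without PMR-116 replicate 1 or vehicle replicate 2. With only the groups compared in the fit, PMR-116 gave 3 members at 3 h and 2 at 12 h, and CX-5461 gave 0 at 3 h. A fit with the replicate number as a block called more members, and more of all genes, with each compound at each time. Those counts of members are given at the end.

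HSPA1A in KG-1 stood at 82.9, 68.8, 57.3 and 64.5 CPM with PMR-116 at 3 h, against 55.5, 41.2, 36.1 and 46.3 CPM with vehicle. The groups did not overlap, although the lowest treated and the highest vehicle library were close, and the log2FC was 0.61 ± 0.14 (adjusted p = 0.0069). HSPA1A and HSPA1B together stood at 203, 163, 139 and 154 CPM, against 142, 106, 96.8 and 112 CPM with vehicle. Here 1 treated library was below the highest vehicle library, and the sum was called at 0.53 ± 0.14 (adjusted p = 0.02). It was not called without PMR-116 replicate 1, or without vehicle replicate 2 or 3. With CX-5461 the sum stood at 180.0, 160.1, 115 and 132 CPM, against 129, 117, 92.1 and 96.5 CPM with vehicle, at 0.44 ± 0.14 (adjusted p = 0.089, not called). DESeq2 and the fit with a replicate block did call it. At 12 h the sum was at -0.14 ± 0.14 with PMR-116 and 0.02 ± 0.14 with CX-5461, neither called.

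HSPA8 in KG-1 stood at 1764, 1329.9, 1266 and 1442 CPM with PMR-116 at 3 h, against 1329, 951, 907 and 1071 CPM with vehicle. Replicate 1 was the highest library of both groups, the groups overlapped, and the log2FC was 0.45 ± 0.14 (adjusted p = 0.046). BAG3 stood at 42.97, 44.4, 37.7 and 38.1 CPM with PMR-116, against 34.5, 31.5, 33.2 and 32.1 CPM with vehicle, without overlap, and at 41.1, 40.6, 34.5 and 33.8 CPM with CX-5461, against 34.2, 29.6, 32.1 and 28. CPM with vehicle, where 1 treated library fell below the highest vehicle library. It was the 1 member raised by both compounds, at 0.31 ± 0.07 with PMR-116 (adjusted p = 0.0076) and 0.27 ± 0.07 with CX-5461 (adjusted p = 0.034). DNAJB4 stood at 3.33, 3.74, 4.25 and 4.03 CPM with PMR-116, against 2.85, 3.503, 2.66 and 2.05 CPM with vehicle, at 0.48 ± 0.14, with groups that overlapped. HSPB1 stood at 38.1, 35.3, 32.6 and 34.2 CPM with CX-5461, against 30.7, 22.5, 30.2 and 30.1 CPM with vehicle. The groups did not overlap, but vehicle replicate 2 was well below its 3 fellows, and the log2FC was 0.30 ± 0.09 (adjusted p = 0.046).

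At 12 h in KG-1, HSPD1 stood at 937, 824, 789 and 827 CPM with PMR-116, against 761, 591, 592 and 648 CPM with vehicle (log2FC 0.38 ± 0.10, adjusted p = 0.012). HSP90AB1 stood at 5649, 4989, 4658 and 5288 CPM, against 4604, 4181, 4011 and 4515 CPM with vehicle (0.25 ± 0.06, adjusted p = 0.006). FKBP4 stood at 825, 762, 734 and 795 CPM, against 687, 660.3, 619 and 685 CPM with vehicle (0.23 ± 0.07, adjusted p = 0.034). All of these were above every vehicle library by a narrow margin, and so was HSPA4L, at 30.95, 24.6, 29.9 and 25.3 CPM with PMR-116, against 24.5, 20.7, 21.9 and 22. CPM with vehicle (0.31 ± 0.09, adjusted p = 0.028). HSPD1, HSP90AB1, FKBP4 and HSPA4L were all called lower with PMR-116 in Mv4;11 at the same time, where FKBP4 had the largest fall of all members. With a replicate block, edgeR called some KG-1 members for a difference between 12 h and 3 h with PMR-116. Without the block it called no KG-1 member. With PMR-116 this left 8 members at an unadjusted p under 0.05 and 2 by DESeq2, with 1.69% of all genes called, 0.768% lower and 0.918% higher. With CX-5461 it left 3 members and 0 by DESeq2, with 0.263% of all genes called, 0.118% lower and 0.145% higher.

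The effects in the 2 lines were compared in 1 joint fit of all 16 groups over 23759 genes. At 12 h the PMR-116 effect was lower in Mv4;11 than in KG-1 for 32 of the 36 members, where 25.4% of all genes were called, 13.2% lower and 12.1% higher. For CX-5461 it was lower for 29 of the 36, where 16.2% of all genes were called, 9.04% lower and 7.18% higher. None was called in the other direction at 12 h. Without the Mv4;11 library that stood apart the PMR-116 count was 33. The largest differences for PMR-116 were in FKBP4 (-2.24 ± 0.13), HSPE1 (-2.01 ± 0.16), HSPA8 (-1.79 ± 0.20), HSPH1 (-1.60 ± 0.20) and HSPD1 (-1.56 ± 0.14). At 3 h, 6 members differed for PMR-116, where 6.94% of all genes were called, 3.19% lower and 3.75% higher. HSPA1B (-1.01 ± 0.25), HSPA8 (-0.86 ± 0.19), CHORDC1 (-0.57 ± 0.14), DNAJB1 (-0.57 ± 0.14) and DNAJA3 (-0.36 ± 0.07) were lower in Mv4;11, and DNAJB4 (0.76 ± 0.21) was higher. This count was 10 by DESeq2 and with its size factors in edgeR, 5 to 12 with 1 library left out, and larger still with the replicate block. For CX-5461 at 3 h HSPA1B alone differed (-1.0 ± 0.25, adjusted p = 0.012), where 3.07% of all genes were called, 1.5% lower and 1.57% higher, while the sum with HSPA1A was not called (-0.84 ± 0.26, adjusted p = 0.065). DESeq2 called 3 members here, and 0 to 4 were called with 1 library left out. HSPA1A and HSPA1B together differed between the lines for PMR-116 at 3 h (-0.95 ± 0.26, adjusted p = 0.016) and at 12 h (-1.33 ± 0.26, adjusted p = 6.9e-05), and for CX-5461 at 12 h (-1.0 ± 0.26, adjusted p = 0.0046).

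PMR-116 and CX-5461 were compared at the same dose and time as a difference of their effects, in 4 comparisons, each adjusted over all genes. In Mv4;11 at 12 h, 13 of the 36 members were lower with PMR-116 and none higher, where 5.11% of all genes were called, 3.84% lower and 1.27% higher, and 32 of the 36 estimates lay below 0. HSPA8 (-0.89 ± 0.14, adjusted p = 0.00051) and FKBP4 (-0.88 ± 0.14, adjusted p = 0.00059) differed most, and in both the PMR-116 libraries lay below all CX-5461 libraries. Next were CHORDC1 (-0.67 ± 0.16), HSPE1 (-0.64 ± 0.12), DNAJA1 (-0.59 ± 0.13) and AHSA1 (-0.56 ± 0.13). CCT6A, HSPD1, CCT3, CCT5, DNAJA3, HSP90AB1 and CCT7 differed by between -0.44 and -0.27. By role, the 13 comprised 3 of 6 HSP90 cochaperones, 4 of 8 CCT genes, 3 of 4 mitochondrial chaperones, HSPA8, HSP90AB1 and DNAJA1. The inducible HSP70 genes were not among them, since HSPA1A and HSPA1B together differed by -0.52, with a 95% interval of -1.11 to 0.06 (adjusted p = 0.38). HSPH1 (-0.48, 95% interval -0.78 to -0.18) and HSP90AA1 (-0.34, 95% interval -0.59 to -0.09) were not called either. TCP1 (0.02, 95% interval -0.16 to 0.20) and CCT8 (0.02, 95% interval -0.15 to 0.19) had estimates near 0. Leaving out 1 library at a time gave 6 to 16 members here, with 6 without vehicle replicate 1 of PMR-116, and 8 without replicate 2 of that vehicle or without CX-5461 replicate 1. The 16 came without the library that stood apart. With only the groups compared in the fit 7 members were called, and with both vehicle groups together 20.

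**Figure D4:**
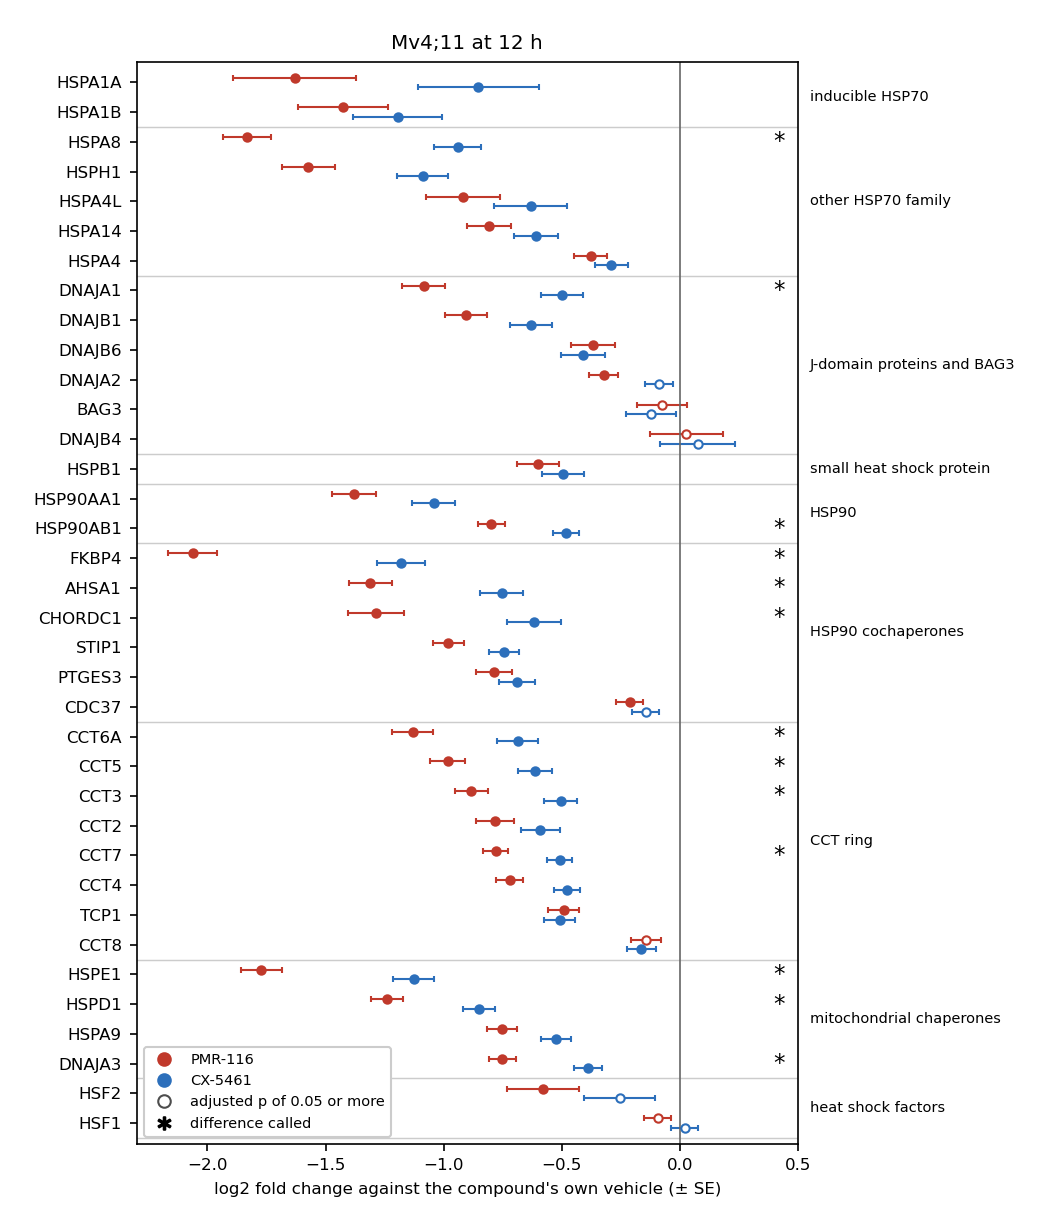
Log2 fold change with its standard error (across) of each member (down the page, by role) with PMR-116 and with CX-5461 against each compound's own vehicle in Mv4;11 at 12 h; open circles are effects with an adjusted p of 0.05 or more, and a star marks the 13 members whose difference between compounds was called. The PMR-116 point lies left of the CX-5461 point in 32 of the 36 members.

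In the other 3 comparisons of the compounds 0 members were called by edgeR. For Mv4;11 at 3 h, where 1.34% of all genes were called, 0.732% lower and 0.61% higher, 2 members passed an unadjusted p under 0.05 and DESeq2 called 1. These 2 were DNAJB4, higher with PMR-116 (0.77, 95% interval 0.34 to 1.2, adjusted p = 0.091), and CHORDC1, lower (-0.47, 95% interval -0.79 to -0.15). In KG-1 the members' 95% intervals spanned -0.42 to 0.94 at 3 h, where 1 member (DNAJB4) passed an unadjusted p under 0.05, 0 were called by DESeq2 and 0.0107% of all genes were called. At 12 h they spanned -0.57 to 0.53, where 0 members passed an unadjusted p under 0.05, 0 were called by DESeq2 and 0.0483% of all genes were called, 0.0269% lower and 0.0215% higher. For the CCT genes these intervals lay between -0.23 and 0.25 at 3 h and between -0.22 and 0.29 at 12 h. Between the vehicle of PMR-116 and that of CX-5461, 0 members were called by edgeR or DESeq2 in either line at either time, with 0 to 3 members at an unadjusted p under 0.05 and 0% of all genes called by edgeR.

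Side by side, inducible HSP70, the HSP90 cochaperones and the CCT ring kept the same order of medians in Mv4;11. The inducible median rests on HSPA1A and HSPA1B alone, whose sum was not called at 3 h with either compound, and the order was not tested. At 3 h the medians were -0.45, -0.24 and -0.11 with PMR-116, and -0.41, -0.15 and -0.06 with CX-5461. At 12 h they were -1.53, -1.13 and -0.78 with PMR-116, and -1.02, -0.72 and -0.51 with CX-5461. Within the cochaperones the 12 h range with PMR-116 was -2.06 to -0.21, which contains both inducible genes and 7 of the 8 CCT genes, so the order of the medians does not separate the roles gene by gene. In KG-1 at 3 h the inducible genes had a median of 0.54 with PMR-116 and 0.44 with CX-5461, against 0.09 and 0.07 for the cochaperones and 0.06 and 0.04 for the ring. At 12 h in KG-1 all of these medians lay between -0.13 and 0.04.

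A wider set of 67 chaperone and heat shock genes that are not members was followed by the same fits, of which 65 were tested in Mv4;11 and 62 in KG-1. In Mv4;11 at 12 h, 37 were lower and 9 higher with PMR-116 (median -0.24), against 22.5% and 20.7% of all genes, and 34 lower and 6 higher with CX-5461 (median -0.23), against 16.5% and 14.8% of all genes. At 3 h, 13 were lower and 11 higher with PMR-116, against 13.1% and 11% of all genes, and 7 lower and 6 higher with CX-5461, against 6.61% and 5.05% of all genes. In KG-1 between 0 and 5 were higher and between 0 and 3 lower in each comparison, against 1.36% to 4.73% and 1.18% to 4.74% of all genes. Among further mitochondrial chaperones, 7 of 8 were lower with each compound at 12 h in Mv4;11, and among further HSP90 cochaperones 7 of 11 were. Of 15 other heat-inducible or HSF1-related genes, 6 were higher and 5 lower with PMR-116 at that time, and 3 were higher and 5 lower with CX-5461.

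The largest rises in that set went against the members. IER5, an immediate early gene whose product activates HSF1, stood at 114 to 137 CPM with PMR-116 at 3 h in Mv4;11, against 41.02 to 43.7 CPM with vehicle, and at 107 to 118 CPM with CX-5461, against 38.8 to 44.3 CPM with vehicle. No libraries overlapped, at 1.55 ± 0.08 for PMR-116 and 1.42 ± 0.08 for CX-5461. HSPA6, a strictly heat-inducible HSP70, stood at 3.35 to 4.73 CPM with PMR-116 at 12 h, against 1.401 to 1.74 CPM with vehicle (1.39 ± 0.23). Its near-copy HSPA7 stood at 3.16 to 3.74 CPM, against 0.611 to 0.8404 CPM with vehicle (2.21 ± 0.32), and reads of the copies may be divided wrongly between them. With CX-5461 at 12 h the largest rises were in DNAJB2, a J-domain protein of neurons (0.99 ± 0.16), and IER5 (0.94 ± 0.07).

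The largest falls in the set followed the members. BAG2, an HSP70 exchange factor, was at -0.80 ± 0.11 with PMR-116 at 3 h and -1.54 ± 0.11 at 12 h, and at -0.60 ± 0.11 with CX-5461 at 3 h. DNAJC9, a J-domain protein that chaperones histones, was at -1.40 ± 0.07 with PMR-116 and -1.05 ± 0.07 with CX-5461 at 12 h. SERPINH1, a collagen chaperone, was at -0.63 ± 0.14 with PMR-116 at 3 h, HSPA13 at -0.44 ± 0.12 with CX-5461 at 3 h, and CACYBP at -1.02 ± 0.09 with CX-5461 at 12 h. In KG-1 the named changes were small. At 3 h DEDD2 was at 0.37 and BAG5 at 0.26 with PMR-116, and JMJD6 at 0.44 and DEDD2 at 0.38 with CX-5461. At 12 h NUDC, an HSP90 partner, was at 0.30 with PMR-116 and 0.29 with CX-5461, while with PMR-116 RPAP3 was at 0.38, SERPINH1 at -0.30 and the mitochondrial disaggregase CLPB at -0.28.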

How the data were processed

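Per the labels' protocols, RNA came from a Nucleospin kit and libraries from Illumina's Stranded mRNA Prep. The deposited tables hold estimated counts per gene symbol, 1 table per line, with 100.0% of values above 0 not whole (within 1e-06). The submitters' processing notes name Salmon 1.5.2, DESeq2 and GRCh38.p13 without their roles. Which annotation was used, and whether counting used strand, is not given in the sources at hand. The Mv4;11 table held 24 further columns that matched no sample and were not used. Every entry named a gene.

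The counts were rounded and passed to edgeR 4.0.16 (R 4.3.3) after filterByExpr (minimum count 10, minimum total 15) and TMM scaling. A quasi-likelihood model was fitted per line, over its 8 groups, and over both lines for differences between them. All tests were 2-sided, with Benjamini-Hochberg adjustment over all genes of a fit. Standard errors are the size of the log2 fold change divided by the root of F, and 95% intervals use normal quantiles. The fits were tested on simulated data. The alternatives run were DESeq2 1.42.0, other scalings, no filter, a replicate block, both vehicle groups together, only the groups compared, and each library left out in turn. Replicates differed by more than counting noise (chi-square over its degrees of freedom at least 7.03), so each counted once. The members and gene lists were chosen with earlier results of these data known, so no test or p over a list is given. Values of every library are given for the member of each role with the largest called change in a comparison, and genes outside the members are the 2 largest called rises and falls of the wider lists. A gene that this rule names is not reported here. Promoter windows were matched by symbol.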

Additional observations from a re-analysis of the deposited data

Results flagged for a closer look

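In 7 comparisons the difference between 2 effects was itself tested and called members. The PMR-116 effect was lower than the CX-5461 effect in Mv4;11 at 12 h for 13 members. The effect at 12 h was lower than that at 3 h in Mv4;11 for 32 members with PMR-116 and 26 with CX-5461. The effect in Mv4;11 differed from that in KG-1 for 6 members with PMR-116 at 3 h, 32 with PMR-116 at 12 h, 1 with CX-5461 at 3 h and 29 with CX-5461 at 12 h. Part of this may be the batch and the table, which cannot be told apart from the line.

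Within KG-1 groups of 4, a single library lay far from its fellows in 12 of 288 combinations of a member and a group, where chance gives such a gap in about 1 in 20. Of these, 3 were low values of HSPA1B in replicate 2 at 12 h, with 63.4 CPM in the CX-5461 library, 59.4 CPM in the CX-5461 vehicle and 67.8 CPM in the PMR-116 vehicle, and HSPA1A in that CX-5461 vehicle library was at 38.9 CPM. HSPB1 was at 34.3 CPM in replicate 4 of the PMR-116 vehicle at 3 h and at 22.5 CPM in replicate 2 of the CX-5461 vehicle at 3 h, the second of which enters the call of HSPB1. HSP90AB1 was at 5171 CPM in PMR-116 replicate 3 at 3 h, and DNAJB4 at 5.49 CPM in PMR-116 replicate 3 at 12 h. FKBP4 was at 763 CPM in CX-5461 replicate 1 at 12 h. CDC37 was at 329 CPM in replicate 1 and HSF2 at 27.5 CPM in replicate 4 of the CX-5461 vehicle at 12 h, and HSPH1 at 196 CPM in replicate 1 of that vehicle at 3 h. Whether any of these has a technical source was not tested.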

How the results depend on the processing

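The called falls in Mv4;11 at 12 h stayed below 0 under the alternatives run, with 30 to 33 members called for PMR-116 and 29 to 32 for CX-5461, and 32 to 33 and 28 to 31 with 1 library left out. Under plain library totals the all-gene median in Mv4;11 at 12 h was 0.18 (PMR-116) and 0.12 (CX-5461), where TMM gave 0.01 and 0.04. The smaller counts did depend on the processing, and the cause was not tested. Other values for them were as follows. With library totals, KG-1 gave 2 members for PMR-116 at 3 h (5 as reported), 1 for CX-5461 at 3 h (2 as reported) and 2 for CX-5461 at 12 h (0 as reported). Using only the groups compared gave 3 and 2 for PMR-116 at 3 h and 12 h (4 as reported at 12 h) and 0 for CX-5461 at 3 h in KG-1, 7 for PMR-116 minus CX-5461 in Mv4;11 at 12 h (13 as reported), and 2 for the CX-5461 effect at 3 h between lines (1 as reported). With both vehicle groups together there were 7 for CX-5461 at 3 h (4 as reported) and 2 for the compounds at 3 h (0 as reported) and 20 for the compounds at 12 h in Mv4;11, and in KG-1 at 12 h 7 (PMR-116) and 1 (CX-5461). Without a filter there were 0 for CX-5461 at 3 h in KG-1, 2 for the compounds at 3 h in Mv4;11, and 2 for CX-5461 at 3 h between lines. DESeq2 gave 1 for the compounds at 3 h in Mv4;11, 2 for PMR-116 at 12 h minus 3 h in KG-1 (0 as reported), and 10 and 3 for PMR-116 and CX-5461 at 3 h between lines, and DESeq2-type size factors in edgeR gave 10 for PMR-116 (6 as reported).

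Same-numbered replicates deviated together weakly, with correlations of -0.0133 to 0.238, over 0.1 for every pair in 0 of 8 comparisons. Even so, 23 of 28 samples were closest to their own number, and 3 or 4 of the 4 samples in each KG-1 comparison. The labels do not say what the numbers share, so the main fits were left without a block. A shared effect of the number was not tested. A fit with the replicate number as a block gave 12 members each for PMR-116 at 3 h and 12 h, 5 and 3 for CX-5461 at 3 h and 12 h, and 8 for PMR-116 at 12 h minus 3 h in KG-1. It gave 14 and 4 for PMR-116 and CX-5461 at 3 h between lines, and no other count moved by over 1.5 times.

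With 1 library left out at a time, counts ran from 5 to 10 for PMR-116 and 1 to 5 for CX-5461 in Mv4;11 at 3 h, and from 0 to 1 for the compounds there. They ran from 6 to 16 for the compounds in Mv4;11 at 12 h. In KG-1 they ran from 2 to 5 and 1 to 6 for PMR-116 at 3 h and 12 h, 0 to 3 and 0 to 2 for CX-5461, and 0 to 2 for PMR-116 at 12 h minus 3 h. Between lines they ran from 5 to 12 for PMR-116 and 0 to 4 for CX-5461 at 3 h, 32 to 34 and 27 to 31 at 12 h, and in Mv4;11 from 30 to 34 and 24 to 26 at 12 h minus 3 h.

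The libraries behind moves of over 1.5 times were these. For PMR-116 at 3 h in Mv4;11, there were 6 without vehicle replicate 2 or PMR-116 replicate 3 and 5 without vehicle replicate 3. For CX-5461 at 3 h in Mv4;11 there was 1 without CX-5461 replicate 1 or vehicle replicate 3 and 2 without vehicle replicate 2. In KG-1 at 3 h with PMR-116 there were 3 without PMR-116 replicate 1 or vehicle replicate 2, and 2 without PMR-116 replicate 2 or 4 or vehicle replicate 3 or 4. In KG-1 at 12 h with PMR-116 there was 1 without PMR-116 replicate 1 or vehicle replicate 2, and 2 without vehicle replicate 3 or 4. For CX-5461 in KG-1 there were 0 at 3 h without CX-5461 replicate 1 or 2 or vehicle replicate 2, 3 or 4, 1 without CX-5461 replicate 4, and 2 at 12 h without vehicle replicate 1. For PMR-116 at 12 h minus 3 h in KG-1 there were 2 without vehicle replicate 1 of 3 h. Between lines at 3 h there were 12 for PMR-116 without Mv4;11 vehicle replicate 1 and 10 without Mv4;11 PMR-116 replicate 2 or KG-1 PMR-116 replicate 3. For CX-5461 there were 2 without replicate 1 of either line's vehicle, 0 without Mv4;11 vehicle replicate 3 and 4 without KG-1 CX-5461 replicate 3.

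HSPA1A and HSPA1B together passed the test at 3 h in Mv4;11 without a filter (-0.43 for PMR-116, -0.42 for CX-5461) and in KG-1 with CX-5461 by DESeq2 (0.44) and with the replicate block (0.44). With 1 library left out the sum ran from -0.69 to -0.26 for PMR-116 at 3 h in Mv4;11, and in KG-1 from 0.42 to 0.65 for PMR-116 at 3 h, 0.32 to 0.53 for CX-5461 at 3 h (called without CX-5461 replicate 3) and -0.10 to 0.088 for CX-5461 at 12 h, where the sign turned. For single members called with a compound, 87 of 87 calls held with DESeq2, DESeq2-type size factors or the block, 85 with both vehicle groups, 80 without a filter, 78 with library totals and 77 with only the groups compared. Each call was also refitted without each library of its groups in turn. It held in 465 of these combinations of a call and a library, and did not in 79. Depth limits DNAJB4 most, which had 2.05 CPM in its lowest vehicle library in KG-1.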
